A study of Mus musculus with 7 samples.

Results

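Podocytes are the epithelial cells that wrap the capillaries of the kidney's filter, the glomerulus, and 8 genes of their programme were measured here in cultured fetal mouse kidneys: Wt1, Foxc2, Nphs1, Magi2, Podxl, Ptpro, Clic5 and Synpo. They were taken as a list of symbols, with earlier results of these data known, and are 8 of the 23235 gene symbols in each deposited table. Podocytes send out interlocking foot processes joined by the slit diaphragm, a cell junction through which the blood is filtered. They arise from nephron progenitors, which make epithelial vesicles that pattern into podocytes at one end and tubule at the other. Wt1 is already made by the progenitors and stays on in podocytes, while the slit diaphragm genes come on late.

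RNA was sequenced in 7 libraries of cultured kidneys from C57BL/6 mice, 3 labelled beta-catenin activated and E2-2 deleted and 4 labelled beta-catenin activated and E2-2 wildtype. Beta-catenin carries the canonical Wnt signal to the nucleus and was activated in both groups, and no library without that activation was analysed here. E2-2 is a transcription factor of the E protein class. Per the labels' protocols, tamoxifen (2 mg per 40 g of body weight) was given to the pregnant dam at 10.5 days post coitum, and kidneys dissected at 10.5 days were cultured for 3 to 4 days. The labels name neither the alleles nor the Cre driver, and do not say which cells recombined, which kidney was cultured for how long, or whether a library is 1 animal. The p-values therefore reflect the spread among these libraries alone, and that spread may be technical. Values are FPKM, fragment counts divided by transcript length and by library size, so levels can be compared between genes.

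The inferred depth was 13600000 to 24200000 fragments per library. Library names begin with BI or BM, prefixes the labels do not explain: BM holds 1 deleted library (replicate 3) and 2 wildtype libraries (replicates 3 and 4), and BI holds 2 of each. Transcripts of Tcf4, which encodes E2-2, were at 33.5 to 42 FPKM in the libraries labelled deleted and 28.7 to 58.1 in the wildtype ones (difference -0.12, SE 0.23, limma adjusted p = 0.885). A value per gene does not show whether a part of the gene is missing, so the deletion could not be checked here, and deleted stands below for the label. Deleted replicate 2 stood apart: it had the lowest value of the 7 libraries in 44.4% of the 13464 genes tested. It also had the lowest value in 6 of 8 nephron progenitor genes, with a summed level of 77.2 FPKM against 209 and 307 in the other deleted libraries and 162 to 359 across the wildtype ones. Six2, which keeps progenitors undifferentiated, was at 2.69 FPKM there and at 29 to 74.8 FPKM in the other 6.

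Of the 8 genes, RefSeq promoter sequences (GRCm38.p6, 250 bases before to 50 after a transcription start) were found for 4: Nphs1, Clic5, Ptpro and Magi2. They are shown because E2-2, like other E proteins, binds the E-box CANNTG, and activated beta-catenin acts through TCF/LEF factors, whose sites hold CTTTGA. Each is printed 5' to 3' on the gene's strand, and capitals mark CANNTG, which is the same on both strands, or CTTTGA on either strand.
Nphs1: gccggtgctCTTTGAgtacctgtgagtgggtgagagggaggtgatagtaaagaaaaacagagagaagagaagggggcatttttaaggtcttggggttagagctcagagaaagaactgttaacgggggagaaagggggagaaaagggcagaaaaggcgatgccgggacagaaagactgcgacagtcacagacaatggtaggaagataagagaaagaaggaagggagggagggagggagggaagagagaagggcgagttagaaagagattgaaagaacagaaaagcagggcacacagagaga
Clic5: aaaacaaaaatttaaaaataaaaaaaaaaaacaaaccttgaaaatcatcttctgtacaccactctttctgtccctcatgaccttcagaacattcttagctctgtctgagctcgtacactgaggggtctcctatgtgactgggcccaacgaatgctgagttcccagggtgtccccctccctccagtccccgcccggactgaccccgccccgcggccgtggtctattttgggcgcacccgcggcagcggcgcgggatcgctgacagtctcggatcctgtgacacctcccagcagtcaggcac
Ptpro: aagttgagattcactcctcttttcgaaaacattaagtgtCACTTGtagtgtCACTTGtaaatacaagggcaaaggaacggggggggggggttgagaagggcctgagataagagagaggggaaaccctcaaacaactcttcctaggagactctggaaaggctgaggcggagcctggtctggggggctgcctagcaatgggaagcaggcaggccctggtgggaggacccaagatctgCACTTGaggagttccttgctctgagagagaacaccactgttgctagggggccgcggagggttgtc
Magi2: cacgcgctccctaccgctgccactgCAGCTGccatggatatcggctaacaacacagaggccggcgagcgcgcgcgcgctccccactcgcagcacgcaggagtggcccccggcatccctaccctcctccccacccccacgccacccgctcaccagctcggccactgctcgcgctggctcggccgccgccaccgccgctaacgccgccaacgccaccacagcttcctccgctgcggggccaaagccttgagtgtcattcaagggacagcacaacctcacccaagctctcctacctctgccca
These windows lie at chr7:30459808-30460107 (Nphs1), chr17:44188322-44188621 (Clic5), chr6:137252049-137252348 (Ptpro) and chr5:19226796-19227095 (Magi2), all on the plus strand. The Ptpro window holds 3 E-boxes, all CACTTG, and the Magi2 window 1, CAGCTG. The Nphs1 window holds 1 CTTTGA and no E-box, and the Clic5 window holds neither. A second Magi2 start, at chr5:19907268-19907567, has 1 E-box, CACCTG. Among all 32851 promoter windows of this length, 72.3% hold CANNTG, 16.3% CAGCTG and 16% CTTTGA, and no marked match overlaps another. A match is only a run of letters, and none of these windows was measured for binding.

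No genotype difference was detected in any of the 8 podocyte genes after adjustment over all genes tested. By limma, 0 of 8 passed an adjusted p of 0.05, as did 0 of the 13464 genes tested (0%). Differences are E2-2 deleted minus E2-2 wildtype on the log2(FPKM + 1) scale, on which low genes, those near 1 FPKM, show less than their true fold change. They ran from -0.65 for Nphs1 to 0.37 for Magi2, with a median of -0.28 (-0.05 over all genes tested). Of the 8, 3 were positive and 5 negative, where 5290 of the 13464 genes tested were positive and 8174 negative. The median of the 8 was 0.01 without wildtype replicate 2, -0.13 without deleted replicate 2 and -0.28 to -0.37 without any other single library. Foxc2 had an unadjusted p of 0.0498, the only one of the 8 under 0.05, where 1.2% of all genes were lower at that level and 3.29% higher. In all 8 genes the groups overlapped; over all genes, the 3 deleted values were all above the 4 wildtype ones in 2.84% and all below in 2.05%. In bulk tissue, fewer podocytes and less RNA per podocyte cannot be told apart.

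**Figure D1:**
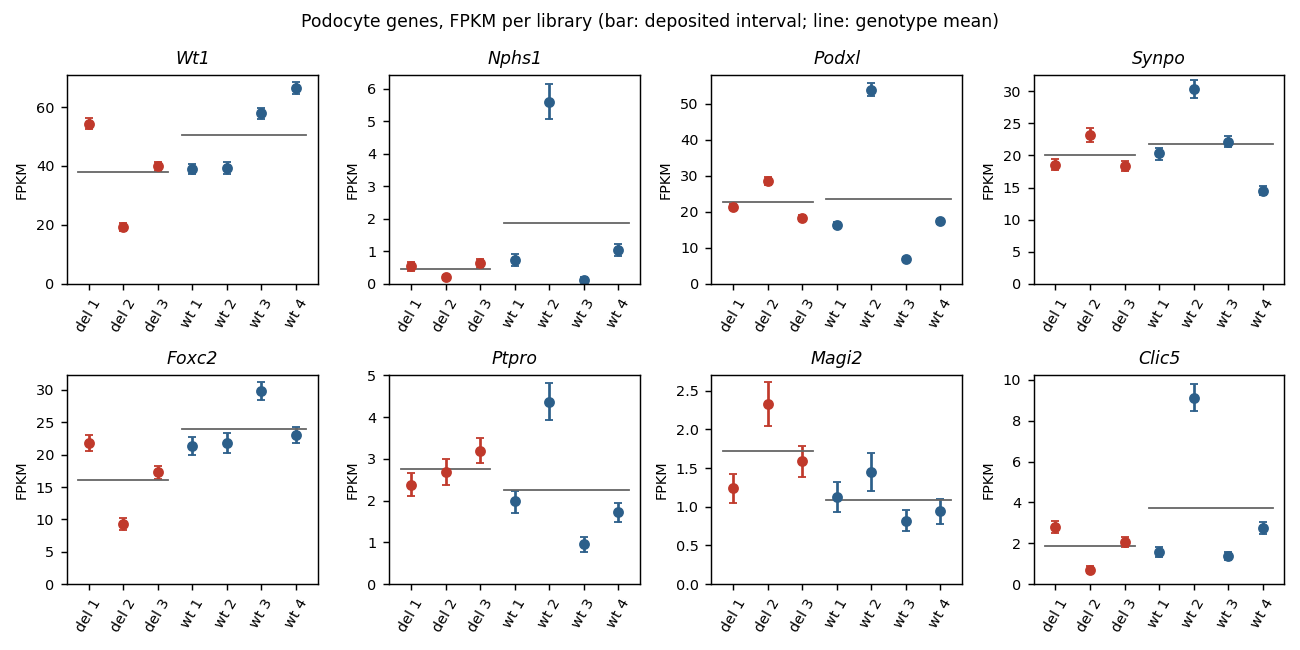
FPKM of the 8 podocyte genes (vertical axes) in each of the 7 libraries (horizontal axes; red, E2-2 deleted, n = 3; blue, E2-2 wildtype, n = 4), with the interval deposited for each value as a bar and the genotype mean as a line. Wildtype replicate 2 is the highest library for Nphs1, Podxl, Synpo, Ptpro and Clic5, and deleted replicate 2 is the lowest for Wt1, Foxc2 and Clic5. Over all genes tested, 11.9% are highest in wildtype replicate 2 and 44.4% lowest in deleted replicate 2.

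The level of the 8 genes fell into 2 tiers. Averaged over the 7 libraries, Wt1 stood at 45.2 ± 15.6 FPKM (SD, n = 7), Podxl at 23.2 ± 15.0, Synpo at 21.0 ± 4.99 and Foxc2 at 20.6 ± 6.24. Clic5 at 2.91 ± 2.83, Ptpro at 2.47 ± 1.10, Magi2 at 1.36 ± 0.505 and Nphs1 at 1.27 ± 1.94 made up the lower tier. Foxc2 exceeded Clic5 in 7 of 7 libraries and Ptpro exceeded Magi2 in 7 of 7. The neighbours within the upper tier changed places between libraries: Podxl exceeded Synpo in 4 of 7 and Synpo exceeded Foxc2 in 3 of 7. In the lower tier Clic5 exceeded Ptpro in 4 of 7, and Magi2 exceeded Nphs1 in 5 of 7. Nphs1 thus ranked last by its mean, though not in every library. Its mean lay above that of 2.75% of the genes tested, all of which have a mean of at least 1 FPKM.

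Wt1, the zinc finger factor needed for podocyte fate and for the survival of kidney progenitors, was low in a single deleted library. Its FPKM was 54.4, 19.3 and 39.9 in E2-2 deleted replicates 1 to 3 and 39.0, 39.3, 57.8 and 66.4 in E2-2 wildtype replicates 1 to 4 (chromosome 2, 104966686 to 105013771, in the tables' coordinates, whose build is not given in the sources used here and does not match that of the promoters). Deleted replicates 1 and 3 lay within the wildtype range, and deleted replicate 2 lay below it. The means of 37.9 ± 17.6 (SD, n = 3) and 50.6 ± 13.7 (SD, n = 4) differed by -0.49 on the log2 scale, as for all differences below (SE 0.35, 95% interval -1.30 to 0.32; adjusted p = 0.795 by limma, exact two-sided permutation p = 0.343). It was -0.08 without deleted replicate 2, -0.80 without deleted replicate 1, -0.26 within BI and -0.62 within BM.

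Foxc2, a forkhead factor of podocyte precursors that is also made in vessels and skeletal mesenchyme, had the same low library. It was at 21.8, 9.31 and 17.3 FPKM across the deleted libraries and 21.4, 21.8, 29.9 and 23.0 across the wildtype ones (chromosome 8, 123640071 to 123642794). Deleted replicate 3 was also under the lowest wildtype library, but deleted replicate 1 was not. The means of 16.1 ± 6.33 (SD, n = 3) and 24.0 ± 3.96 (SD, n = 4) differed by -0.61 (SE 0.26, 95% interval -1.22 to -0.00; adjusted p = 0.795 by limma, exact permutation p = 0.171). Both prefixes gave a negative difference (BI -0.56, BM -0.58), and it was -0.28 without deleted replicate 2. Every alternative kept it negative, and none brought its adjusted p under 0.386.

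Nphs1, which encodes nephrin, the adhesion protein that spans the slit diaphragm, was dominated by 1 wildtype library. Its FPKM was 0.546, 0.196 and 0.640 across the deleted libraries and 0.735, 5.61, 0.133 and 1.05 across the wildtype ones (chromosome 7, 31245077 to 31273628). Wildtype replicate 2 was 5.34-fold above the next library and 42.2-fold above wildtype replicate 3, the lowest. These values rest on an inferred 447 fragments in wildtype replicate 2, 17.3 in wildtype replicate 3 and 19 to 129 in the other 5. Nphs1 passed the minimum mean of 1 FPKM only through wildtype replicate 2, since its mean over the other 6 libraries was 0.55. The means of 0.460 ± 0.234 (SD, n = 3) and 1.88 ± 2.51 (SD, n = 4) differed by -0.65 (SE 0.55, 95% interval -1.92 to 0.62; adjusted p = 0.795 by limma, exact permutation p = 0.343). Without wildtype replicate 2 the wildtype mean was 0.639 FPKM and the difference -0.14, and it was -0.98 without wildtype replicate 3. It was -1.32 within BI, which holds wildtype replicate 2, and 0.11 within BM. An antisense entry, Nphs1as, overlaps the Nphs1 locus, and the strand setting of the authors' counting is not given in the sources used here, so reads of both cannot be told apart. Nphs1as was listed at 0.676 FPKM in wildtype replicate 2 and at 0 to 0.0982 in the other 6 libraries.

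Magi2, a scaffold with PDZ domains that binds nephrin inside the cell, came closest to separating the genotypes among the genes with a positive difference. It was at 1.24, 2.33 and 1.59 FPKM across the deleted libraries and 1.13, 1.45, 0.821 and 0.940 across the wildtype ones (chromosome 5, 18732864 to 20210610). Deleted replicates 2 and 3 were above all 4 wildtype libraries, while deleted replicate 1 was below wildtype replicate 2. The means of 1.72 ± 0.555 (SD, n = 3) and 1.09 ± 0.276 (SD, n = 4) differed by 0.37 (SE 0.20, 95% interval -0.10 to 0.84; adjusted p = 0.795 by limma, exact permutation p = 0.114). Both prefixes gave a positive difference (BI 0.26, BM 0.46), and it was 0.22 without deleted replicate 2.

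Podxl encodes podocalyxin, the charged sialomucin of the apical foot process surface, which endothelium makes too. Its FPKM was 21.2, 28.5 and 18.3 across the deleted libraries and 16.2, 53.9, 6.89 and 17.3 across the wildtype ones (chromosome 6, 31469493 to 31513937). The deleted libraries sat between wildtype replicate 2, the highest, and the other 3 wildtype libraries. The means were nearly equal, at 22.6 ± 5.24 (SD, n = 3) and 23.6 ± 20.8 (SD, n = 4), while the difference of log values was positive, at 0.28 (SE 0.57, 95% interval -1.03 to 1.59; adjusted p = 0.894 by limma, exact permutation p = 0.686). It was 0.78 without wildtype replicate 2 and -0.15 without wildtype replicate 3, 0.11 without deleted replicate 2, and -0.27 within BI and 0.68 within BM. Of 8 endothelial markers, 8 were lowest in wildtype replicate 3, the library with the least Podxl, and 2 (Kdr and Tie1) were highest in wildtype replicate 2. Over all genes tested, 21.4% were lowest in wildtype replicate 3 and 11.9% highest in wildtype replicate 2. The part of endothelium in the Podxl values was not tested.

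Ptpro encodes a receptor tyrosine phosphatase of the podocyte's apical surface that is also made in neurons. It was at 2.38, 2.68 and 3.20 FPKM across the deleted libraries and 1.98, 4.37, 0.952 and 1.72 across the wildtype ones (chromosome 6, 137200820 to 137413154). As for Podxl, the deleted libraries were above every wildtype library but replicate 2. The means of 2.76 ± 0.414 (SD, n = 3) and 2.26 ± 1.48 (SD, n = 4) differed by 0.30 (SE 0.32, 95% interval -0.44 to 1.04; adjusted p = 0.808 by limma, exact permutation p = 0.514), with -0.18 within BI and 0.87 within BM. The difference was 0.58 without wildtype replicate 2 and 0.09 without wildtype replicate 3. The summed level of 8 neuron and glia markers was 33.5 to 181 FPKM across the deleted libraries and 26.5 to 139 across the wildtype ones. It was 69.5 in wildtype replicate 2, and none of the 8 was highest in that library, against 11.9% of all genes tested. The part of neurons in the Ptpro values was not tested.

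Clic5, an intracellular chloride channel family protein that links podocalyxin's partner ezrin to foot process actin, repeated the pattern of Nphs1. Its FPKM was 2.78, 0.714 and 2.07 across the deleted libraries and 1.59, 9.12, 1.40 and 2.73 across the wildtype ones (chromosome 17, 44325521 to 44417117). Wildtype replicate 2 was 3.27-fold above the next library, and deleted replicate 2 was the lowest. The means of 1.85 ± 1.05 (SD, n = 3) and 3.71 ± 3.65 (SD, n = 4) differed by -0.53 (SE 0.52, 95% interval -1.74 to 0.68; adjusted p = 0.801 by limma, exact permutation p = 0.571). It was -0.07 without wildtype replicate 2, -0.20 without deleted replicate 2 and 0.26 without both, and -1.01 within BI and 0.04 within BM.

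Synpo, whose product synaptopodin bundles actin in foot processes and in neuronal spines, had the smallest ratio of highest to lowest library among the 8, at 2.09 against 2.83 for Magi2, the next. It was at 18.5, 23.2 and 18.3 FPKM across the deleted libraries and 20.3, 30.3, 22.1 and 14.5 across the wildtype ones (chromosome 18, 60753644 to 60783959). Here too wildtype replicate 2 was highest, by 1.31-fold. The means of 20.0 ± 2.74 (SD, n = 3) and 21.8 ± 6.55 (SD, n = 4) differed by -0.08 (SE 0.22, 95% interval -0.60 to 0.44; adjusted p = 0.922 by limma, exact permutation p = 0.743). The difference was 0.09 without wildtype replicate 2, -0.19 without deleted replicate 2, -0.25 without wildtype replicate 4 and within BI, and 0.03 within BM.

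Which of the 8 genes had groups that did not overlap depended on the library left out, a count added after these values were seen. Without wildtype replicate 2, the highest wildtype library for Podxl, Ptpro and Magi2, these 3 were higher in every deleted library than in the remaining wildtype ones (6.08% of all genes tested were apart upward and 7.27% downward). The adjusted p of all 3 by limma was then 0.661, so none passed. Without deleted replicate 1, Magi2 was apart upward and Foxc2 downward (9.88% and 10.6% of all genes). Without wildtype replicate 3, the lowest library for Nphs1, that gene was apart downward (4.01% upward and 3.91% downward over all genes). Leaving out any of the other 4 libraries separated 0 of 8.

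**Figure D2:**
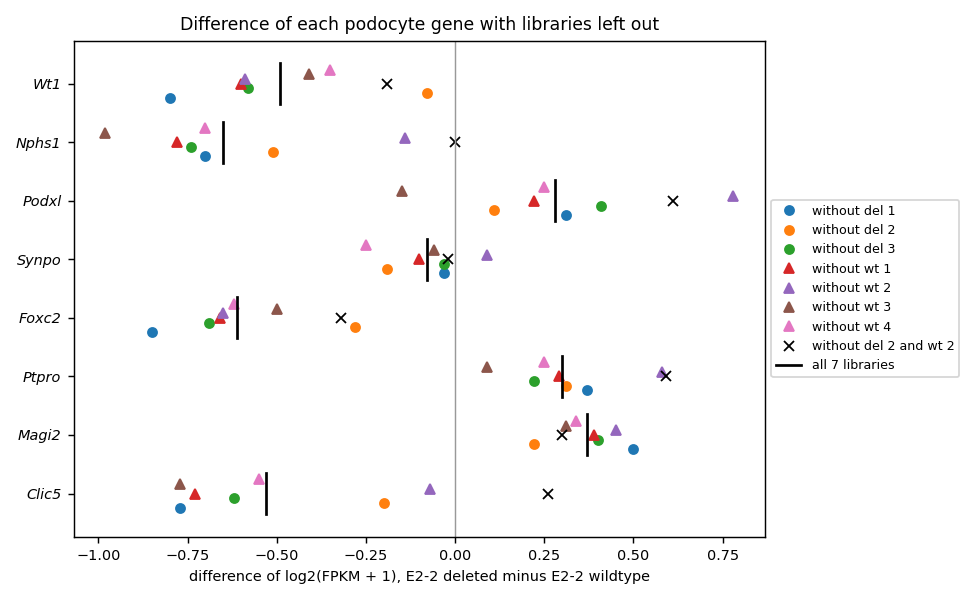
Difference in log2(FPKM + 1), E2-2 deleted minus E2-2 wildtype (horizontal axis), of each podocyte gene with all 7 libraries (black bar), with 1 library left out (circles, deleted; triangles, wildtype) and with deleted replicate 2 and wildtype replicate 2 left out together (crosses). Leaving out wildtype replicate 2 moves Nphs1 from -0.65 to -0.14 and Podxl from 0.28 to 0.78, and leaving out deleted replicate 2 moves Wt1 from -0.49 to -0.08.

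The deposited interval of each FPKM covers the uncertainty of that estimate within its library, not the spread between libraries. Among the 9 pairs of libraries of the same genotype, the intervals did not overlap in 8 pairs for Wt1, Podxl, Synpo and Clic5, in 7 for Nphs1, in 6 for Foxc2 and Ptpro, and in 4 for Magi2. Over 13422 tested genes with 1 entry the median was 5 of the 9 pairs. The SD of log2(FPKM + 1) over the 7 libraries was 0.86 for Nphs1, 0.85 for Podxl and 0.81 for Clic5, larger than in 97.1%, 97% and 96.6% of the genes tested. That of Magi2, 0.29, was larger than in 66.6%.

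The 8 genes did not vary together as one block. Over the 28 pairs, Pearson's r of log2(FPKM + 1) across the 7 libraries was positive in 19 and negative in 9, from -0.95 to 0.94 with a median of 0.37. Points of a pair share their library, and 30 pairs were computed in all. Both genotypes were pooled, so r mixes any difference between the groups with the spread within them. The pairs to genes outside the 8 were added after their values were seen, and of these Wt1 with Six2 is given here. The values for Nphs1 and Clic5 were r = 0.94 (exact permutation p = 0.00833, adjusted 0.0536) and rho = 0.71 (exact permutation p = 0.0881, adjusted 0.294). Without the 2 libraries farthest from the median of Nphs1, wildtype replicates 2 and 3, r was 0.78. Wt1 and Foxc2 had r = 0.90 (exact permutation p = 0.0161, adjusted 0.0689) and rho = 0.86 (exact permutation p = 0.0238, adjusted 0.119), and r = 0.72 without deleted replicate 2 and wildtype replicate 4. Podxl and Ptpro had r = 0.92 (exact permutation p = 0.0111, adjusted 0.0556) and rho = 0.86 (exact permutation p = 0.0238, adjusted 0.119), but r = 0.45 without wildtype replicates 2 and 3. Nphs1 and Podxl had r = 0.74 (exact permutation p = 0.0911, adjusted 0.327) and rho = 0.32 (exact permutation p = 0.498, adjusted 0.711). Their r was -0.91 without wildtype replicates 2 and 3, so this relation rests on those libraries.

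Magi2 was inversely related to Foxc2 by Pearson's r, while its relation to Wt1 did not pass the adjusted threshold. Deleted replicate 2 was lowest for Foxc2, as for 44.4% of all genes tested, and highest for Magi2, as for 17.2%. How often pairs of other genes reach as strong an r was not tested. Foxc2 and Magi2 also had genotype differences of opposite sign (-0.61 and 0.37), which the pooled r does not set apart from the spread among replicates. Foxc2 and Magi2 had r = -0.95 (exact permutation p = 0.000992, adjusted 0.0179) and rho = -0.89 (exact permutation p = 0.0123, adjusted 0.119), and r = -0.77 without deleted replicate 2 and wildtype replicate 3. Wt1 and Magi2 had r = -0.91 (exact permutation p = 0.00893, adjusted 0.0536) and rho = -0.71 (exact permutation p = 0.0881, adjusted 0.294), and r = -0.69 without deleted replicate 2 and wildtype replicate 4. Wt1 and the progenitor gene Six2 had r = 0.94 (exact permutation p = 0.00357, adjusted 0.0357) and rho = 0.86 (exact permutation p = 0.0238, adjusted 0.119), and r = 0.69 without the same 2 libraries. Among the pairs of podocyte genes given here, only Foxc2 with Magi2 passed an adjusted p of 0.05 for r, and 0 of the 30 passed for rho. Wt1 with Six2 was added after its values were seen, so its p-values cannot test that relation and are not counted as a pass. The adjustment ran over all 30 pairs, the added ones included, so the adjusted p-values of the other pairs depend on that addition too.

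The genes whose levels ran most like those of Nphs1 were sought among all genes tested by Pearson's r of log2(FPKM + 1) over the 7 libraries, as a description. Ddn, which encodes dendrin, another slit diaphragm protein, came first (r = 0.99, rho = 0.96, and r = 0.99 without wildtype replicates 2 and 3). Its FPKM was 0.590, 0.0158 and 0.644 across the deleted libraries and 0.657, 4.59, 0.0861 and 1.15 across the wildtype ones, again highest in wildtype replicate 2. The next were Afp, the fetal albumin-like protein (r = 0.99), the amino acid oxidase gene Dao (r = 0.98), Mia2 (r = 0.98) and the pyruvate kinase gene Pklr (r = 0.98). Without wildtype replicates 2 and 3 their r was 0.94, 0.81, 0.94 and 0.80. Like Nphs1, the genes Ddn, Dao and Pklr passed the minimum mean of 1 FPKM only through wildtype replicate 2. The filter, set on the mean over the 7 libraries, thus favoured low genes that are high in a single library, that one or another. For Wt1 the same search gave Rhbdd3, Cpsf4, Hoxc4, Bag4 and Exosc2, with r of 0.99 to 1.00, and of 0.96 to 0.99 without deleted replicate 2 and wildtype replicate 4. Hoxc4, a homeobox gene, was at 5.87 FPKM in deleted replicate 2 and at 10.6 to 15.9 in the other 6 libraries.

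**Figure D3:**
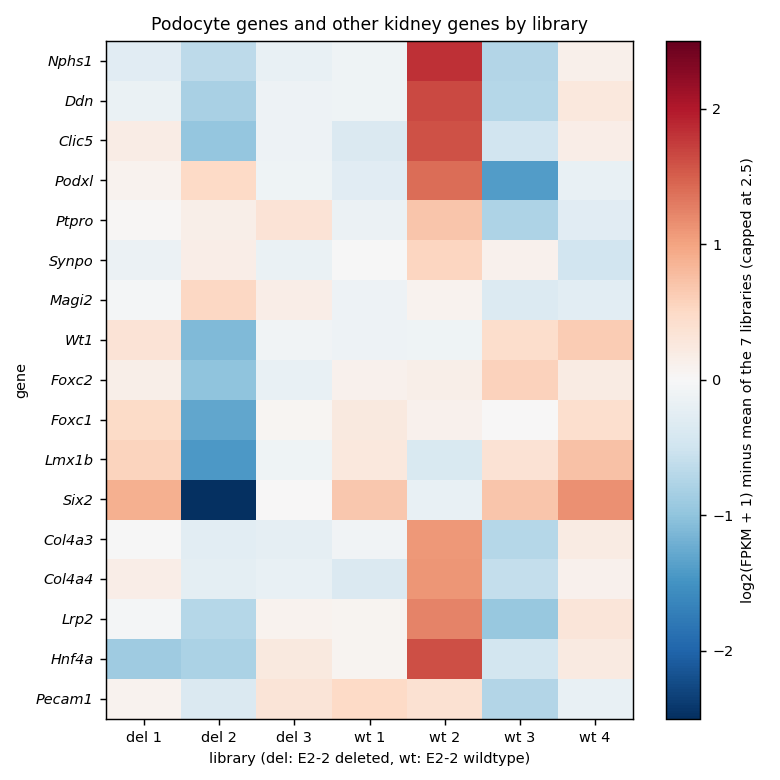
Level of podocyte genes and of other kidney genes (rows) in each library (columns), as log2(FPKM + 1) minus the gene's mean over the 7 libraries, with the colour scale capped at both ends. Nphs1, Ddn, Clic5, Col4a3, Col4a4, Lrp2 and Hnf4a are highest in wildtype replicate 2, and Wt1, Foxc2, Foxc1, Lmx1b and Six2 are lowest in deleted replicate 2.

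Of 44 other podocyte genes in 5 lists, 42 were tested and 0 passed the limma threshold over all genes (background 0%). Positive differences were found in 19 and negative ones in 23, with a median of -0.04 against -0.05 over all genes tested. Over all genes tested, 5290 differences were positive and 8174 negative. In the slit diaphragm list 5 of 9 were positive (median 0.05). The calcium channel gene Trpc6 averaged 1.87 ± 0.847 FPKM (SD, n = 3) with E2-2 deleted and 0.862 ± 0.291 (SD, n = 4) with E2-2 wildtype, and the giant cadherin gene Fat1 at 73.8 ± 31.2 against 50.6 ± 4.33, with deleted replicate 2 highest in both. Kirrel2, a nephrin relative, was at 0.0924 to 0.652 FPKM and was not tested.

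In the transcription factor and cell cycle list 5 of 6 differences were negative (median -0.36), against 8174 of the 13464 genes tested. The Notch effector gene Hey1 averaged 19.9 ± 6.14 FPKM (SD, n = 3) with E2-2 deleted and 29.3 ± 3.91 (SD, n = 4) with E2-2 wildtype, a difference of -0.57 (SE 0.21, limma adjusted p = 0.795). Lmx1b, a LIM homeobox factor of podocytes, was at 4.02, 0.270 and 2.17 across the deleted libraries and 1.63 to 4.65 across the wildtype ones, a difference of -0.57 (SE 0.46). Tcf21, a factor of podocytes and stroma, differed by -0.26 (SE 0.22). Deleted replicate 2 was the lowest library for 5 of the 6 genes, against 44.4% of all genes tested. Without that library the median of the list was 0.02.

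In the list of adhesion and basement membrane genes, 5 of 10 differences were positive (median 0.01). Col4a3 and Col4a4, the collagen chains that podocytes add to the mature glomerular basement membrane, were at 3.10 and 3.57 FPKM in wildtype replicate 2. In the other 6 libraries they were at 0.172 to 1.24 and 0.4 to 1.38. Both passed the minimum mean of 1 FPKM only through wildtype replicate 2. The integrin gene Itga3 and its neighbour in the matrix, the nephronectin gene Npnt, were also highest in wildtype replicate 2, at 27.8 and 55.9 FPKM. In wildtype replicate 3, 7 of the 10 genes were lowest, against 21.4% of all genes tested. Col4a5 differed by 0.24 (SE 0.12) and the tetraspanin gene Cd151 by -0.16 (SE 0.10).

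Among the actin and foot process genes 3 of 10 differences were positive (median -0.06). The ezrin-binding scaffold gene Slc9a3r1 differed by -0.32 (SE 0.16) and the filament gene Nes by -0.30 (SE 0.16). In the signalling list 5 of 7 were positive (median 0.19). Vegfa, the vessel growth factor that podocytes supply to glomerular capillaries, averaged 60.4 ± 3.52 FPKM (SD, n = 3) with E2-2 deleted and 51.6 ± 8.98 (SD, n = 4) with E2-2 wildtype, a difference of 0.24 (SE 0.15). Angpt1, another vessel factor, differed by 0.24 (SE 0.15).

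**Figure D4:**
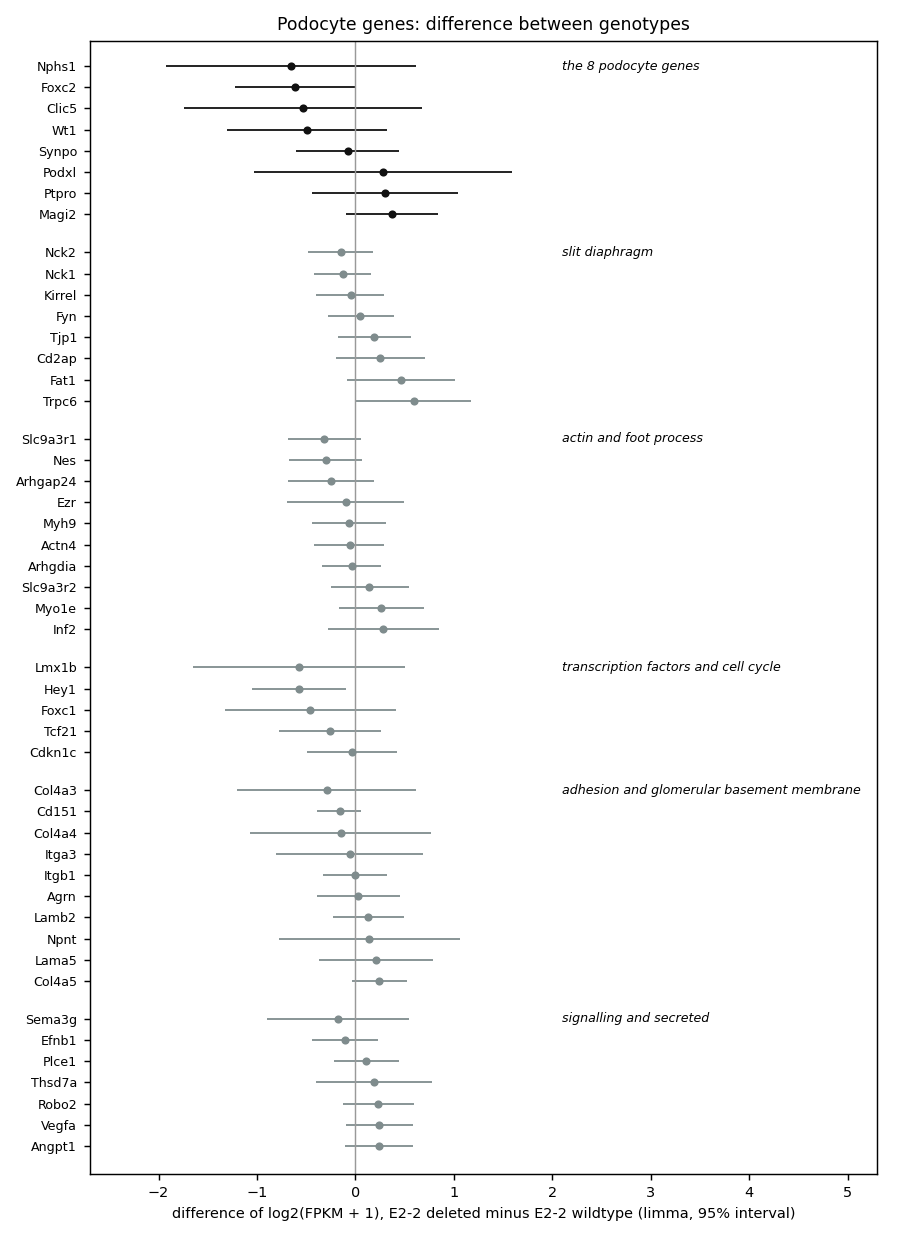
Difference in log2(FPKM + 1), E2-2 deleted (n = 3) minus E2-2 wildtype (n = 4), with its 95% confidence interval from limma, for the 8 podocyte genes (black) and 40 other podocyte genes (grey) by list. The 8 differences run from -0.65 (Nphs1) to 0.37 (Magi2), and none of the 48 drawn passed an adjusted p of 0.05.

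Wildtype replicate 2 was the highest of the 7 libraries in 5 of the 8 podocyte genes and in 14 of the 44 others, where 11.9% of all genes tested were highest there. Of the tubule genes, 4 of 7 proximal tubule markers (Slc34a1, Lrp2, Cubn and Hnf4a) also peaked there, among them Lrp2, the endocytic receptor megalin, at 8.40 FPKM against 1.06 to 3.87 elsewhere, and the nuclear receptor gene Hnf4a at 9.42 against 0.827 to 3.04. None of the 8 nephron progenitor genes was highest in it, and their summed level of 162 FPKM was the lowest of the wildtype libraries. Over all 7 proximal tubule markers the summed level was 18.7 to 90.8 FPKM across the deleted libraries, where the water channel gene Aqp1 stood at 86.4 in deleted replicate 2, and 18 to 34 across the wildtype ones. The part of culture time in these values was not tested, since the labels do not give it per library.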

How the data were processed

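Each library has 1 deposited table of FPKM values by gene with interval bounds, per the file headers. The submitters' processing notes list CASAVA (1.8.2), TopHat2 (2.0.4) and Cufflinks (2.0.2) but give no roles. For the genome build and annotation the entry is "not given in the sources used here". Locus starts, counted from 0 in the tables (of 20480 matched genes, 8691 spans were 1 longer than in RefSeq and 528 equal), are printed counted from 1, with no build named.

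Entries of 1 symbol were summed (248 symbols had several). One deposited file had 25 symbols that differed from the others, which were taken from another file, since all loci matched line by line. Genes with a status other than OK in any library (203) and small RNAs (676) were left out. The 13464 genes with a mean of at least 1 FPKM were tested as log2(FPKM + 1), unscaled, with limma 3.58.1 in R 4.3.3 (mean-variance trend, two-sided, Benjamini-Hochberg over all genes tested, threshold 0.05). The fit was checked on simulated data. Single genes were also compared by an exact permutation test. Fragments were inferred as the square of 2 times the FPKM over its distance to the upper bound: of such numbers under 300 from genes with 1 start, 78.7% to 79.9% lay within 0.05 of a whole number, where the tolerance alone gives 10%. Depth was inferred from genes with 1 GENCODE transcript and is approximate.

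The 8 genes, the lists and the rule for named genes (the 8; Tcf21, Lmx1b and 2 podocyte genes that are not reported here; the 2 genes of smallest p in each list; the 5 most alike to Nphs1 and to Wt1) were chosen with earlier results of these data known. Genes that the text names only as the highest or lowest in a library, and Six2 as a partner in a pair, were named after their values were seen. Alternatives were another pseudocount, filter, scaling, library weights, the name prefix, and leaving libraries out. At most 0.0371% of the genes tested had the same value in 2 libraries.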

Additional observations from a re-analysis of the deposited data

Results flagged for a closer look

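In the group of 4 wildtype libraries, 4 of the 49 named genes had 1 library set apart, with a gap to the nearest library, as a share of the group's range, above Dixon's 95% critical value, which chance passes in about 1 of 20 groups. Nphs1 was at 5.61 FPKM in wildtype replicate 2 (gap of 0.83 of the range) and Afp at 12.9 FPKM in the same library (0.85). Tcf21 was at 176 FPKM in wildtype replicate 3 (0.84), and the guidance factor gene Ntn1, a stroma marker, at 22.9 FPKM there (0.86). Afp was among the genes checked because its levels were the most like those of Nphs1 after Ddn, so these 2 are not independent. The 3 deleted libraries are too few for this check.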

How the results depend on the processing

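Under the alternatives, no podocyte gene passed the limma threshold. The count of all genes that passed, 0 in the reported fit (605 at an unadjusted p under 0.05), was 1 with no filter on the mean (Ndufs5) and 1 with a weight per library (9130015A21Rik), and 0 without any single library. Leaving out 1 library at a time moved Podxl between -0.15 and 0.78 and Synpo between -0.25 and 0.09, through 0 in both. The other 6 kept their sign there: Wt1 -0.80 to -0.08, Nphs1 -0.98 to -0.14, Foxc2 -0.85 to -0.28, Ptpro 0.09 to 0.58, Magi2 0.22 to 0.50 and Clic5 -0.77 to -0.07. Within BM the sign turned for Nphs1 (0.11), Synpo (0.03), Clic5 (0.04), Hnf4a (0.37), Ddn (0.10), Afp (0.48), Mia2 (0.19) and Pklr (0.19). Within BI it turned for Podxl (-0.27), Ptpro (-0.18), Angpt1 (-0.01), Sox10 (-0.37) and Stmn2 (-1.13). Leaving out both replicates 2, an alternative chosen after seeing the data, turned Nphs1 (0.00), Clic5 (0.26), Ddn (0.04), Afp (0.17), Mia2 (0.01) and Pklr (0.00). It also moved the medians of the 8 genes to 0.13, of the 44 others to 0.11 and of the transcription factor list to -0.03. The last median ranged from -0.53 to 0.02 without single libraries. The median of the actin list was 0.08 with quantile normalization and that of the signalling list -0.01 within BI. The cause of these shifts was not tested beyond the libraries named. No paired analysis was possible because the labels give no replicate numbers: those used here follow accession order, only name a library and tie no library to one of the other group. Among the 8 genes depth limits Nphs1 most, since its lowest library rests on 17.3 inferred fragments.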

Other observations

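Markers of the gonad and of the coelomic epithelium, which make Wt1 as well, were highest in deleted replicate 2 in 5 of 8 genes. Over all genes tested, 17.2% were highest there. The summed level of these markers was 13.5, 40.5 and 19.8 FPKM across the deleted libraries and 7.08 to 13.7 across the wildtype ones. Upk3b, a mesothelial marker, averaged 5.65 ± 4.15 FPKM (SD, n = 3) with E2-2 deleted and 1.36 ± 0.807 (SD, n = 4) with E2-2 wildtype, and Lhx9, a gonadal ridge factor, at 1.97 ± 1.63 against 0.471 ± 0.320. The 6 tested genes of this list all had positive differences (median 0.83), 0 of them past the limma threshold. Over all 13464 genes tested, 5290 differences were positive. Lhx9 passed the minimum mean of 1 FPKM only through deleted replicate 2. Nr5a1 and Gata4 were not tested, and each was listed at 0 in at least 1 library. Nr5a1 was at 0 FPKM in deleted replicate 2 and highest in deleted replicate 1. Inha was also highest in deleted replicate 1, and Star in deleted replicate 3. Deleted replicate 2 thus combined the least Wt1 with the highest summed level of these markers. Their part in the Wt1 values was not tested.

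The early nephron genes were not all low in that library. Wnt4, which turns progenitors into epithelium, was at 100 FPKM there and at 28.7 to 41.1 in the other 6. But 5 of the 7 genes, Fgf8 among them, were lowest in deleted replicate 2, against 44.4% of all genes tested. Wnt4 averaged 60 ± 34.6 FPKM (SD, n = 3) with E2-2 deleted and 31.6 ± 3.62 (SD, n = 4) with E2-2 wildtype, and Fgf8 at 1.74 ± 1.29 against 3.88 ± 1.05, both with groups that did not overlap (2.84% of all genes upward, 2.05% downward) and with a limma adjusted p of 0.795. Pax2, a progenitor factor, was at 24.4 ± 20.0 against 37.1 ± 13.1. Of the remaining lists, renal stroma had a median difference of -0.21 (1 of 6 positive), ureteric bud 0.20 (5 of 6) and endothelium 0.06 (6 of 8). Neurons and glia had 0.23 (6 of 8) and skeletal muscle 0.54 (3 of 4 tested). Nephron progenitors had -0.55 (1 of 8), early nephron -0.50 (1 of 7) and proximal tubule -0.53 (1 of 4 tested). In these lists 0 genes passed the threshold. Over all 13464 genes tested, 5290 differences were positive. Acta1 (muscle) passed the minimum mean of 1 FPKM only through deleted replicate 2, and Slc34a1 (tubule) only through wildtype replicate 2. The untested tubule markers Fbp1, Cubn and Slc5a2 averaged 1.32, 0.365 and 0.0629 FPKM with E2-2 deleted. With E2-2 wildtype they averaged 0.521, 0.404 and 0.0717. Leaving out 1 library moved most of the medians of these lists. Without deleted replicate 2 they were -0.02 for nephron progenitors, -0.18 for early nephron, 0.42 for gonad and coelomic epithelium and 0.31 for skeletal muscle, and without deleted replicate 1 they were -0.96, -0.82, 1.03 and 0.68. The proximal tubule median was -0.17 without wildtype replicate 2 and -0.86 without wildtype replicate 3. Without wildtype replicate 3 the medians of ureteric bud (-0.11) and endothelium (-0.19) were negative, as was that of neurons and glia (-0.23) without deleted replicate 3. The stroma median stayed between -0.29 and -0.13.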
